A study of Drosophila melanogaster with 30 samples.

Results

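Ionotropic receptors (IRs) are the subject here, taken as every gene whose symbol in the count data is Ir followed by digits and a lower-case letter. The rule uses names and no measured value, and it found 66 genes of the 17471 counted. RNA was measured in whole heads of female *Drosophila melanogaster*, in pools of 100 heads from flies 3 to 7 days old. All flies descend from an outbred population that was founded by crossing 40 inbred lines of the Drosophila Genetic Reference Panel. Lines were bred for their response to an odorant in a T-maze, a 2-armed choice chamber. BUT+ lines were selected for attraction to 2,3-butanedione (BUT) and BUT- lines for aversion to it. CYC+ and CYC- lines were selected for attraction and aversion to cyclohexanone (CYC), and control lines passed through the maze unselected with no odor. Each of the 5 treatments has 3 lines and each line 2 samples, so there are 30 libraries, 6 per treatment. PI+ stands below for BUT+ and CYC+ together, and PI- for BUT- and CYC-.

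IRs are ligand-gated cation channels related to the glutamate receptors of synapses, and they sit in the dendrites of sensory neurons. A working receptor combines a tuned subunit, which sets what is detected, with a co-receptor subunit that many neurons share. In the antenna IR neurons lie in coeloconic sensilla, in the sacculus and in the arista, where they detect acids, amines, humidity and temperature. Many other IRs are used in the taste organs of the proboscis, legs and wings, of which a head sample holds only the proboscis and pharynx. By role, 4 of the 66 genes are co-receptors, 10 are antennal olfactory receptors, 3 are antennal receptors for humidity or temperature, and the other 49 are mostly known from taste organs or larvae. The annotation marks 6 of these 49 as pseudogenes.

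Libraries held 21194086 to 38621924 counted reads, with a median of 29967406. Levels are given as CPM, the read count of a gene scaled to library size, and 1 CPM stood for about 21.2 reads in the smallest library. Antennal tissue was present in every library, since the summed level of 13 antennal markers (odorant-binding proteins, Orco and others) ran from 1170 to 1700 CPM. Of these markers 12 passed 1 CPM in at least 15 libraries, and none was without reads over all libraries combined. Of 4 taste markers 2 passed 1 CPM and 1 had no read, and their sum was only 2.44 to 5.01 CPM. Neuronal and photoreceptor markers were high in all libraries, and 3 germ-line markers summed to at most 5.07 CPM. A head also holds fat body, and the 3 fat body markers ranged widely, from 11200 to 59600 CPM in sum. The sum of 4 midgut markers ran from 7.24 to 210 CPM. In whole heads, fewer cells of a type and less RNA per cell cannot be told apart.

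Most IR genes were near the limit of detection. At least 1 read was found for 64 of the 66 genes, 25 had reads in all 30 libraries, and 14 had at least 10 reads in every library. All 66 together took 0.00830% ± 0.00072 of the counted reads (SD of 15 line means). The 77894 IR reads were unevenly spread, with 54.9% of them from Ir76a, Ir25a and Ir76b. No read was found for Ir94g or for the pseudogene Ir56e, and 19 genes had fewer than 30 reads over the 30 libraries combined. A gene without reads was not detectable at this depth in whole heads, and was not shown to be silent.

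Levels of different genes are compared per kilobase of exon. The highest level was that of Ir76a, a tuned receptor for phenylethylamine and related amines, at 7.75 ± 1.01 CPM per kb (SD, n = 15 lines). Next came 2 co-receptors, Ir76b at 5.79 ± 0.54 and Ir25a at 4.34 ± 0.47 CPM per kb. Ir62a, which acts with Ir25a and Ir76b in calcium taste, had 3.32 ± 0.34 CPM per kb and was the highest of the 49 other IRs. The means of these 4 genes lay more than 1 SD apart. Below them the order was looser, because Ir75a at 2.02 ± 0.62 CPM per kb and the acid co-receptor Ir8a at 1.83 ± 0.30 differed by less than 1 SD over lines. The same holds for Ir68a at 1.33 ± 0.26, Ir75b at 1.32 ± 0.51 and Ir51b at 1.25 ± 0.18 CPM per kb. Even Ir76a exceeded only 62.5% of the 15699 genes with reads.

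Co-receptors stood above tuned receptors as a class. Their median level was 3.09 CPM per kb, against 0.56 for the antennal olfactory IRs, 0.57 for the humidity and temperature IRs and 0.029 for the other 49. The class was not uniform, since Ir93a, the co-receptor of the humidity and temperature receptors, had only 0.32 ± 0.08 CPM per kb. Co-receptors made up 34.6% ± 2.2 of the summed IR level per kb (SD, n = 15 lines). Their sum, 12.3 ± 1.1 CPM per kb, was below that of the 13 tuned antennal IRs at 16.0 ± 1.4 CPM per kb, a ratio of 0.776 ± 0.096. The mean of Ir76a alone was above that of the other 9 antennal olfactory genes combined, which summed to 6.23 ± 1.31 CPM per kb.

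**Figure D1:**
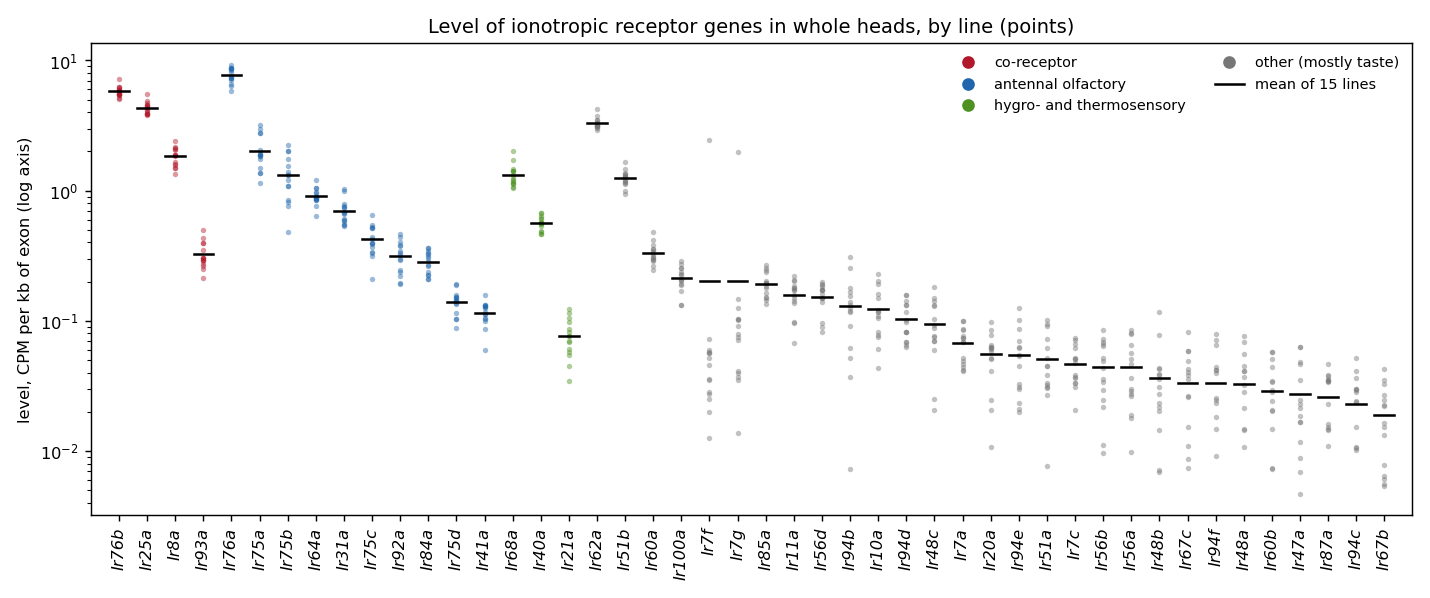
Level of the 46 ionotropic receptor genes with reads in at least 20 of the 30 libraries, as CPM per kb of exon on a log axis. Each point is the mean of a line (lines at 0 are not drawn), the black bar is the mean of 15 lines, and colours give the role; Ir76a is highest at 7.75, and Ir7f and Ir7g each have a single line far above the rest.

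The antennal olfactory genes were all detected in every library. After Ir76a, Ir75a (acetic acid receptor) and Ir75b (butyric acid receptor) came Ir64a, an acid sensor of the sacculus, at 0.91 ± 0.13 CPM per kb and Ir31a, a receptor for 2-oxopentanoic acid, at 0.70 ± 0.15. Ir75c (propionic acid receptor) had 0.42 ± 0.11 CPM per kb, Ir92a (ammonia and amines) 0.32 ± 0.09 and Ir84a (phenylacetic acid and phenylacetaldehyde) 0.29 ± 0.05. The lowest were Ir75d at 0.14 ± 0.03 and Ir41a at 0.12 ± 0.02 CPM per kb, both tuned to amines. Among the humidity and temperature receptors, Ir68a (moist air) was followed by Ir40a (dry air) at 0.57 ± 0.07 and by Ir21a, a cooling receptor of the arista, at 0.077 ± 0.025 CPM per kb.

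Of the 49 other IRs, 8 had reads in all 30 libraries. Ir62a and Ir51b were the only ones to pass 1 CPM in at least 15 libraries. Ir60a at 0.33 ± 0.06 and Ir100a at 0.21 ± 0.05 CPM per kb came next, and Ir85a, Ir11a, Ir56d and Ir10a lay between 0.12 and 0.19 CPM per kb. Every remaining gene of this class had no read in at least 1 library.

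Some of these values may hold reads of another gene. CG14102, on the opposite strand, overlaps 14.1% of the exon length of Ir76a and had 6.08 CPM, against 16.4 CPM for Ir76a. COX6AL2 on the same strand and Prp6 on the opposite strand cover 90.7% of Ir75d. Neither was found by name in the count data, so their levels, and their part in the reads of Ir75d, are unknown. An antisense RNA, CR43609, covers 79.4% of Ir21a but had only 0.0031 CPM, against 0.20 CPM for Ir21a. Pif1A, at 2.89 CPM, overlaps 10.8% of Ir85a, which had 0.41 CPM. Whether the counting used strand is not stated, so the reads of overlapping genes cannot be told apart, and the handling of reads shared by close paralogs is likewise unknown.

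The summed level of all IR genes was 32.9 ± 0.6 CPM per kb in BUT+, 36.6 ± 2.1 in BUT-, 36.2 ± 4.2 in CYC+, 35.9 ± 2.1 in CYC- and 36.0 ± 2.7 in control lines (SD, n = 3 lines each). By line, the sum was 32.3, 33.5 and 32.9 CPM per kb in BUT+ and 39.0, 35.6 and 35.1 in BUT-, which do not overlap. Control lines had 33.5, 38.8 and 35.6 CPM per kb, so that BUT+ and control lines meet at 33.5. Without Ir76a, the antennal olfactory genes summed to 5.80 ± 0.84 CPM per kb in BUT+, 7.41 ± 0.90 in BUT-, 4.85 ± 0.83 in CYC+, 6.30 ± 1.37 in CYC- and 6.81 ± 1.49 in control lines. This sum was lower in PI+ than in PI- lines for both odorants on average. The share of co-receptors was 35.4% ± 1.2 in BUT+, 35.1% ± 4.0 in BUT-, 35.1% ± 3.3 in CYC+, 33.7% ± 1.0 in CYC- and 33.7% ± 0.7 in control lines. No class sum was tested, since a sum over chosen members is a description only.

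**Figure D2:**
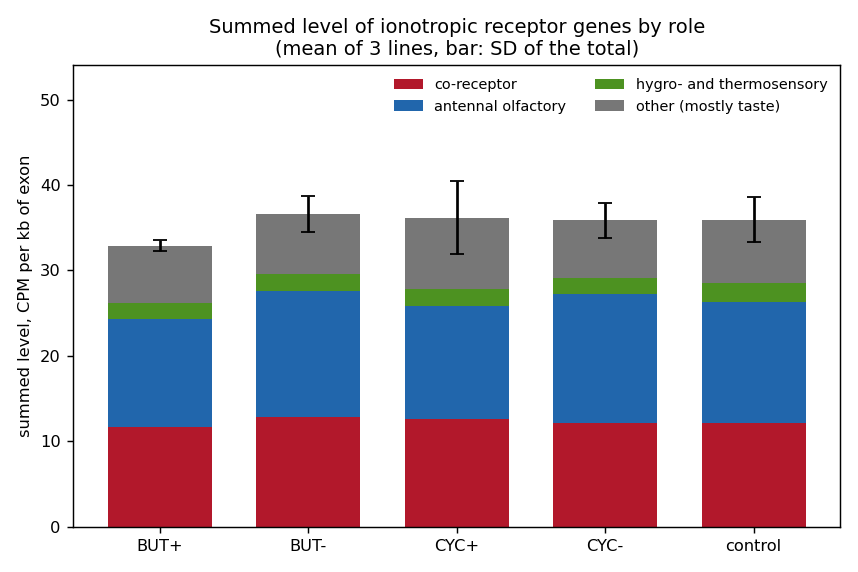
Summed level of the 66 ionotropic receptor genes in each treatment, in CPM per kb of exon and split by role. Bars are means of 3 lines and the error bar is the SD of the total over lines; totals run from 32.9 in BUT+ to 36.6 in BUT-, and the 3 BUT+ lines lie below the 3 BUT- lines.

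For 12 of the 66 IR genes, at least 1 CPM was found in at least 15 libraries. These entered the quasi-likelihood test of edgeR among 9240 genes, where a gene was called at a Benjamini-Hochberg adjusted p under 0.1. The 12 genes hold 89.4% of the IR reads and comprise 3 co-receptors (Ir76b, Ir25a, Ir8a), 5 antennal olfactory genes (Ir76a, Ir75a, Ir75b, Ir64a, Ir31a), Ir68a, Ir40a, Ir62a and Ir51b. All calls on them were lower in the selected or PI+ flies. Against the control, 0 of 12 were called in BUT+ (2.99% of all genes tested), 1 in BUT- (4.70%), 3 in CYC+ (7.02%) and 1 in CYC- (3.74%). Of the 12, 0 were called in BUT+ against BUT- (0.660% of all genes) and 0 in CYC+ against CYC- (1.54%). At an unadjusted p under 0.05, 4 genes passed in BUT+ against control (14.7% of all genes), 3 in BUT+ against BUT- (9.89%) and 2 in CYC+ against CYC- (14.7%). DESeq2 called 0 of 12 in BUT+ against control (4.57% of all genes), 1 in BUT+ against BUT- (1.4%) and 1 in CYC+ against CYC- (3.58%). With both odorants combined, 1 gene was called in selected against control lines (4.38%) and 2 in PI+ against PI- (1.95%). A change in PI+ against PI- that differed between the odorants was called for 0 of 12 genes (0.530%), with 0 at an unadjusted p under 0.05 (9.04%) and 0 with DESeq2 (1.2%).

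The median log2 fold change of the 12 IR genes ran from -0.20 in BUT+ against control to 0.04 in BUT- against control over the comparisons. The median of all genes tested was between -0.02 and 0.01. Line means that do not overlap are common in these data. In BUT+ against control they occurred for 6 of the 12 IR genes, against 17.3% of all genes tested, and in BUT+ against BUT- for 3 of 12, against 13.4%. In BUT- against control there was 1 such IR gene (16.3% of all genes), in CYC+ against control 3 (18.5%), in CYC- against control 4 (17.0%), and in CYC+ against CYC- 1 (14.6%).

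The 4 comparisons with the control share the same 6 control libraries, so their results are not independent. The fits also treat the 2 libraries of a line as separate replicates, although the line is the unit that was selected. With the 2 libraries of a line summed, 15 samples remained and 0 of the 12 genes were called in any comparison. Few genes of any kind were called in that setting, 0 to 1.57% of 9242 over the comparisons, and 0 of all genes in PI+ against PI-. A limma voom fit that took line as a random effect called the same IR genes as edgeR in every comparison. It used a single correlation within lines, 0.144, estimated over all genes. Whether that value holds for the called IR genes was not tested, so this fit may account for line only in part.

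**Figure D3:**
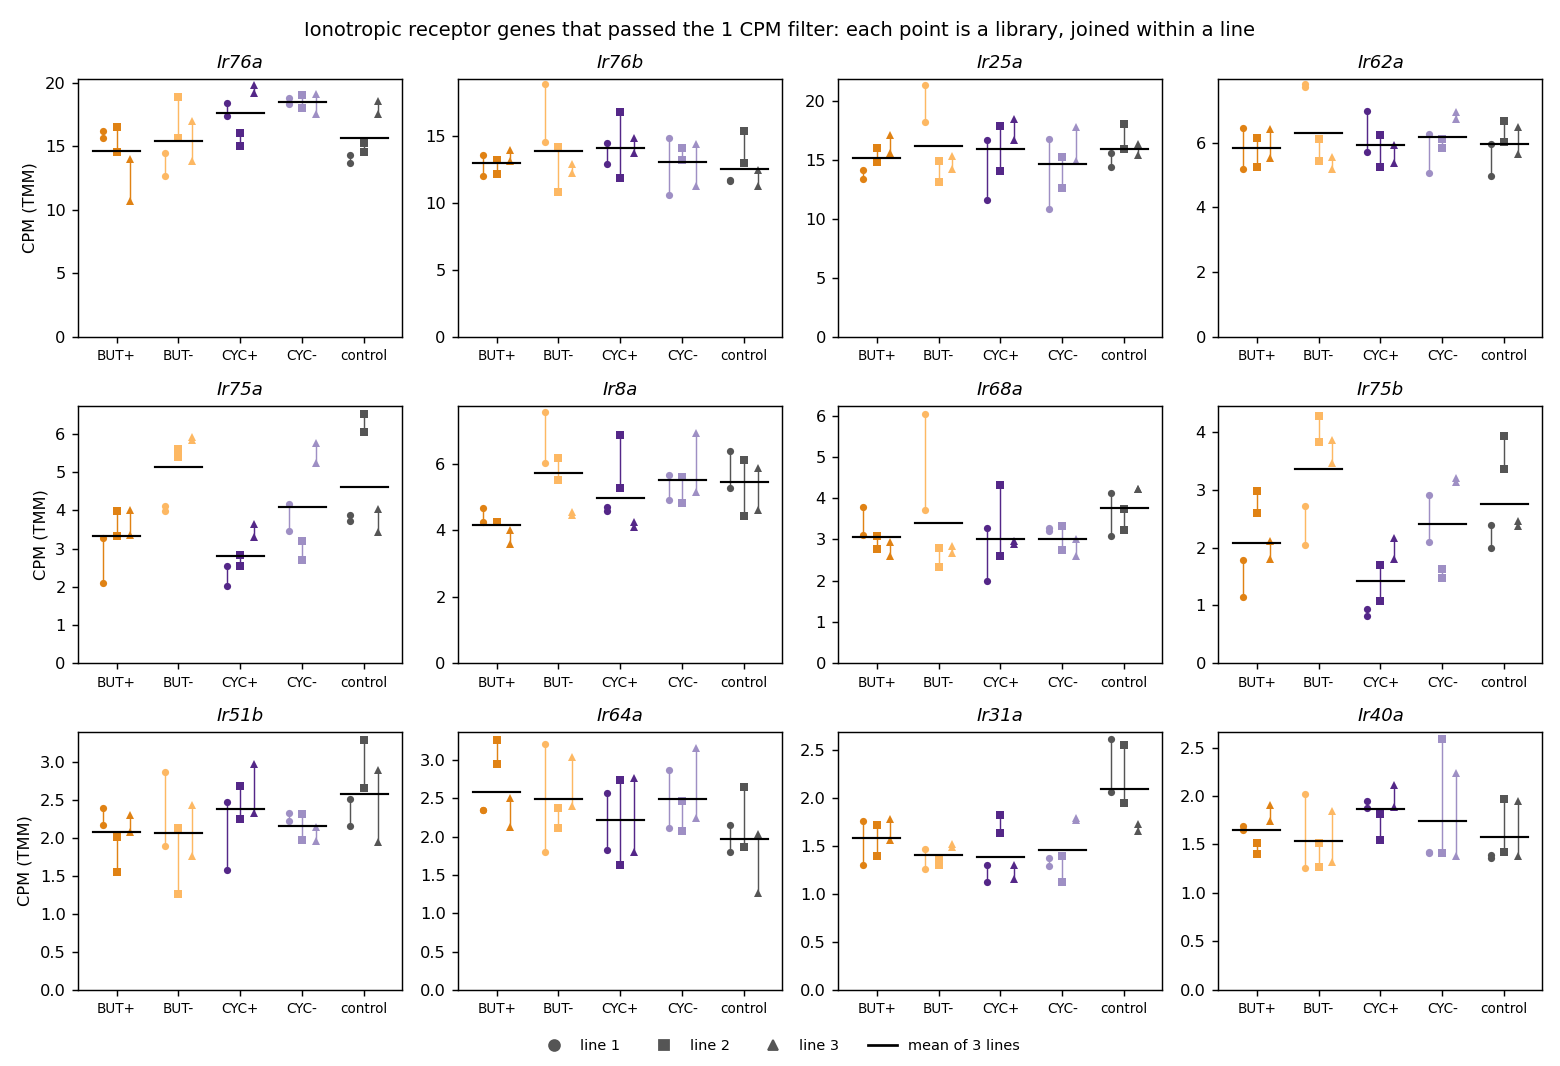
Expression of the 12 tested ionotropic receptor genes in each library, in TMM-normalized CPM from 0, with BUT+, BUT-, CYC+, CYC- and control from left to right. Symbols mark lines 1 to 3, the 2 libraries of a line are joined, and black bars are means of 3 lines; Ir31a is highest in control lines, and Ir75a and Ir75b are lowest in CYC+ lines.

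Ir31a was lower in selected lines. It lies on chromosome 2L at 10405565 to 10408197 (release 6) and has 5 exon blocks. Its lowest, median and highest levels were 1.30, 1.64 and 1.78 CPM in BUT+, 1.26, 1.42 and 1.52 CPM in BUT-, 1.12, 1.30 and 1.82 CPM in CYC+, 1.13, 1.39 and 1.79 CPM in CYC- and 1.65, 2.00 and 2.61 CPM in control libraries. The ranges of BUT- and control libraries do not meet, while BUT+, CYC+ and CYC- each reach into the control range through their highest libraries. By line, all 12 selected lines were under the control mean of 2.09 CPM, and 10 of the 12 were under the lowest control line at 1.69 CPM.

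The log2 fold change of Ir31a against control was -0.39 ± 0.14 in BUT+ (SE, adjusted p = 0.167), -0.57 ± 0.14 in BUT- (adjusted p = 0.0312), -0.59 ± 0.14 in CYC+ (adjusted p = 0.0173) and -0.51 ± 0.14 in CYC- (adjusted p = 0.0497). For all selected lines it was -0.52 ± 0.11 (adjusted p = 0.00614), a level of 0.70 times that of the control. An exact two-sided permutation test over the 15 line means, which keeps the line as the unit, gave p = 0.00659, where the smallest p possible is 0.0022. This p is 1 of 12 from that test and is not adjusted. Between PI+ and PI- lines, Ir31a differed by 0.05 ± 0.10 on the log2 scale (adjusted p = 0.823).

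The control lines were themselves uneven, at 2.34, 2.25 and 1.69 CPM for Ir31a. The change in BUT+ was called without control line 3 (-0.52, adjusted p = 0.0903). Without control line 1, the change in selected lines was -0.43 and its adjusted p 0.135, and without any other single line it remained called, in 14 of 15 fits. The call in BUT- was lost without BUT- line 2 or control line 1, with an adjusted p of up to 0.193. That in CYC+ was lost without CYC+ line 1 (adjusted p = 0.101). That in CYC- was lost without CYC- line 1, CYC- line 2, control line 1 or control line 2, with an adjusted p of up to 0.228. With the libraries of a line summed, the change in selected lines was -0.50 with an adjusted p of 0.150. Some markers of other cells were called in part of these comparisons. In CYC+ and CYC- against control no glial or male marker was called. The antennal marker Obp83b was called lower in both and in all selected lines against control. In CYC+ against control, the fat body markers Yp1 and Yp2 and the midgut markers Amy-p and Jon65Aiv were called lower. The antennal marker Obp59a was called higher there. Of 3 glial markers alrm was called lower in BUT+, in BUT- and in all selected lines (log2 fold change -0.19 ± 0.05, adjusted p = 0.0484 in selected lines), and the glial sum was 281 to 323 CPM in BUT+, 260 to 324 CPM in BUT- and 315 to 347 CPM in control libraries. Of 2 male markers roX1 was called lower in the same comparisons (-0.48 ± 0.12, adjusted p = 0.0345 in selected lines). The male sum was 2.52 to 3.82 CPM in BUT+ and 2.68 to 3.56 CPM in BUT-, below the 3.96 to 5.56 CPM of control libraries. The part of all these markers in the result for Ir31a was not tested.

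Ir75a and Ir75b were lower in PI+ than in PI- lines. They are neighbours on chromosome 3L, Ir75a at 17815570 to 17817921 and Ir75b at 17818073 to 17820193, and Ir75c follows at 17820493 to 17822834. All 3 encode tuned receptors for short acids and lie on the same strand. Reads of close relatives may be split between them, as the counting of shared reads is not stated.

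For Ir75a the lowest, median and highest libraries had 2.09, 3.34 and 4.0 CPM in BUT+ and 3.98, 5.50 and 5.93 CPM in BUT-. In the other regime they had 2.02, 2.69 and 3.63 CPM in CYC+ and 2.70, 3.80 and 5.76 CPM in CYC-, and control libraries had 3.42, 3.95 and 6.52 CPM. The 3 BUT+ lines were all below the 3 BUT- lines, at 2.69, 3.65 and 3.68 CPM against 4.05, 5.50 and 5.89 CPM. CYC+ and CYC- lines overlapped through CYC- line 2, at 2.29, 2.69 and 3.46 CPM in CYC+ against 3.80, 2.95 and 5.50 CPM in CYC-.

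Ir75b was lowest in CYC+ and highest in BUT- by its medians. Its lowest, median and highest libraries had 1.15, 1.97 and 2.98 CPM in BUT+, 2.04, 3.65 and 4.29 CPM in BUT-, 0.824, 1.39 and 2.17 CPM in CYC+, 1.47, 2.51 and 3.21 CPM in CYC-, and 1.99, 2.43 and 3.93 CPM in the control. CYC+ line 1 was the lowest of all lines at 0.878 CPM. Over all 15 lines, differences between treatments included, the coefficient of variation was 38.5% for Ir75b and 30.9% for Ir75a. For the other 10 tested IRs it was 9.32% to 21.6%. Within single treatments it was 26.1% to 39.1% for Ir75b and 17.0% to 31.9% for Ir75a, and Ir68a reached 37.8% in BUT-.

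In PI+ against PI- lines the log2 fold change was -0.58 ± 0.14 for Ir75a (SE, adjusted p = 0.0417) and -0.72 ± 0.18 for Ir75b (adjusted p = 0.0493), which are levels of 0.67 and 0.61 times. Neither passed within an odorant. Ir75a had -0.62 ± 0.19 in BUT+ against BUT- (adjusted p = 0.202) and -0.53 ± 0.19 in CYC+ against CYC- (adjusted p = 0.203). For Ir75b the values were -0.70 ± 0.25 (adjusted p = 0.299) and -0.75 ± 0.26 (adjusted p = 0.175). The difference between the odorants was -0.09 ± 0.27 for Ir75a and 0.05 ± 0.35 for Ir75b, with adjusted p of 0.959 and 0.983. An exact two-sided permutation test over 6 PI+ and 6 PI- line means, added after the data were seen, gave p = 0.0238 for Ir75a and p = 0.0390 for Ir75b, unadjusted over 12 genes.

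Against control, both genes were called only in CYC+ among the 4 selected treatments. Ir75a changed by -0.71 ± 0.20 on the log2 scale and Ir75b by -0.94 ± 0.26 (SE, adjusted p = 0.0395 for each), and the 3 CYC+ lines lay below the 3 control lines for both. In BUT- the 2 genes had positive log2 fold changes, 0.16 and 0.30, with adjusted p of 0.729 and 0.585. The BUT+ lines of Ir75a, at 2.69, 3.65 and 3.68 CPM, were below the lowest control line at 3.73 CPM, while those of Ir75b overlapped the control. Such separation occurred for 17.3% of all genes. With a line left out, the log2 fold change of Ir75a was -0.59 to -0.17 in BUT+ and -0.45 to 0.11 in CYC- against control. The calls of both genes in CYC+ were lost without CYC+ line 1 or without control line 2. The call in PI+ against PI- was lost without CYC- line 3 for Ir75a, and without BUT+ line 1, BUT+ line 3, BUT- line 2, CYC+ line 1 or CYC- line 3 for Ir75b. With the libraries of a line summed, the adjusted p in CYC+ against control was 0.209 for Ir75a and 0.240 for Ir75b, and in PI+ against PI- 0.325 and 0.344. Ir75c, with 731 reads in all, had too few for the 1 CPM filter. At a lower filter of 5 reads in 15 libraries its log2 fold change was -0.08 ± 0.20 in PI+ against PI- (adjusted p = 0.871) and -0.28 ± 0.29 in CYC+ against control (adjusted p = 0.622).

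Fat body markers also differed in CYC+. The sum of the 3 markers was 11200 to 22500 CPM in CYC+ libraries and 23700 to 42100 CPM in control libraries, with no overlap, and Yp1 and Yp2 were called lower. The sum of 4 midgut markers was 7.24 to 28.5 CPM in CYC+ and 46.9 to 188 CPM in control libraries. In BUT+ the fat body sum was 45600 to 59600 CPM, above the control range. The sums of antennal markers overlapped, at 1170 to 1700 CPM in CYC+ and 1250 to 1670 CPM in the control. Of 12 tested antennal markers 1 was called lower (Obp83b) and 1 higher (Obp59a), where 7.02% of all genes were called. The part of these differences in the IR results was not tested.

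**Figure D4:**
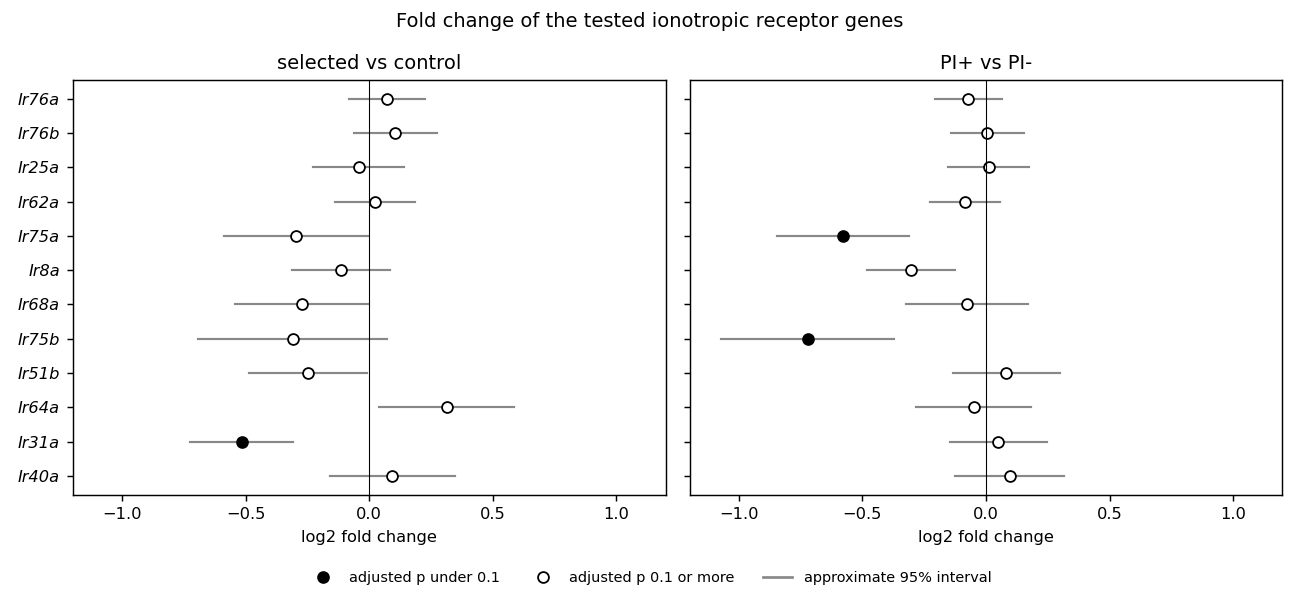
Log2 fold change of the 12 tested ionotropic receptor genes in selected against control lines (left) and in PI+ against PI- lines (right). Lines span the approximate 95% interval and filled points have an adjusted p under 0.1; Ir31a is the filled point on the left at -0.52, and Ir75a and Ir75b are those on the right at -0.58 and -0.72.

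The co-receptor Ir8a was called in no comparison with edgeR and all lines. Ir8a partners the acid receptors, among them Ir75a, Ir75b, Ir75c, Ir64a, Ir31a and Ir84a. Its lowest, median and highest libraries had 3.59, 4.23 and 4.66 CPM in BUT+, 4.47, 5.76 and 7.54 CPM in BUT-, 4.11, 4.64 and 6.87 CPM in CYC+, 4.82, 5.36 and 6.91 CPM in CYC-, and 4.43, 5.56 and 6.38 CPM in control libraries. The BUT+ lines, at 4.46, 4.23 and 3.79 CPM, lay below all BUT- lines, at 6.78, 5.84 and 4.51 CPM, and below all control lines, at 5.82, 5.26 and 5.24 CPM. CYC+ lines, at 4.64, 6.07 and 4.17 CPM, fell among the BUT+ lines in part. The log2 fold change was -0.45 ± 0.13 in BUT+ against BUT- (SE, adjusted p = 0.162), -0.39 ± 0.13 in BUT+ against control (adjusted p = 0.136) and -0.30 ± 0.09 in PI+ against PI- (adjusted p = 0.114). Without BUT- line 3 Ir8a was called in BUT+ against BUT- (adjusted p = 0.0491) and in PI+ against PI- (0.0501). Without CYC+ line 2 it was called in these comparisons (0.0973 and 0.0237) and in BUT+ against control (0.0906). DESeq2 called Ir8a in BUT+ against BUT- (adjusted p = 0.0871) and in PI+ against PI- (adjusted p = 0.0654).

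Ir25a and Ir76b, the broad co-receptors, were called in no comparison. Ir25a averaged 15.2 ± 1.3 CPM in BUT+, 16.2 ± 3.1 in BUT-, 15.9 ± 1.7 in CYC+, 14.7 ± 1.4 in CYC- and 15.9 ± 1.0 CPM in control lines (SD, n = 3 lines each). Ir76b averaged 13 ± 0.5 CPM in BUT+, 13.95 ± 2.4 in BUT-, 14.1 ± 0.4 in CYC+, 13.1 ± 0.5 in CYC- and 12.6 ± 1.4 CPM in control lines. With these depths the approximate 95% interval of the log2 fold change in selected against control lines was -0.23 to 0.14 for Ir25a and -0.06 to 0.27 for Ir76b. Ir93a did not pass the 1 CPM filter, and with the lower filter its log2 fold change in CYC- against control was 0.46 ± 0.22 (SE, adjusted p = 0.331).

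Ir64a was the tested gene with the highest log2 fold change in selected lines, and it was not called unless sample number was fitted as well. It averaged 2.59 ± 0.45 CPM in BUT+, 2.49 ± 0.24 in BUT-, 2.22 ± 0.06 in CYC+, 2.49 ± 0.22 in CYC- and 1.964 ± 0.305 CPM in control lines. All 12 selected lines were above the control mean, and the log2 fold change was 0.31 ± 0.14 (SE, adjusted p = 0.268). The exact permutation test over line means gave an unadjusted p of 0.0110. Libraries of Ir64a ran from 1.63 to 3.27 CPM in selected lines and from 1.27 to 2.65 CPM in control lines, so single libraries overlap widely. Within lines, the second library was above the first in 14 of 15 lines for Ir64a.

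Ir76a was called in no comparison. It averaged 14.6 ± 2.0 CPM in BUT+, 15.4 ± 1.9 in BUT-, 17.7 ± 2.0 in CYC+, 18.5 ± 0.1 in CYC- and 15.7 ± 2.2 CPM in control lines. Its log2 fold change was 0.24 ± 0.10 in CYC- against control (adjusted p = 0.240) and 0.17 ± 0.10 in CYC+ against control (adjusted p = 0.318). Without control line 3 the change in CYC- was 0.36 and was called (adjusted p = 0.0948). For Ir68a and Ir51b, 11 of 12 selected lines were below the control mean, with log2 fold changes in selected lines of -0.27 ± 0.14 (adjusted p = 0.351) and -0.25 ± 0.12 (adjusted p = 0.328). BUT- line 1 decided this for Ir68a, which without that line was called in selected lines (-0.36, adjusted p = 0.0584) and in BUT- against control (-0.49, adjusted p = 0.0731). Ir68a averaged 3.05 ± 0.36 CPM in BUT+, 3.40 ± 1.29 in BUT-, 3.00 ± 0.42 in CYC+, 3.02 ± 0.22 in CYC- and 3.77 ± 0.40 CPM in control lines. Ir51b averaged 2.08 ± 0.26 CPM in BUT+, 2.06 ± 0.34 in BUT-, 2.38 ± 0.32 in CYC+, 2.15 ± 0.11 in CYC- and 2.57 ± 0.35 CPM in control lines.

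Ir62a and Ir40a were called in no comparison either. Ir62a averaged 5.83 ± 0.14 CPM in BUT+, 6.31 ± 1.29 in BUT-, 5.92 ± 0.38 in CYC+, 6.17 ± 0.62 in CYC- and 5.96 ± 0.45 CPM in control lines. Ir40a averaged 1.65 ± 0.19 CPM in BUT+, 1.54 ± 0.13 in BUT-, 1.86 ± 0.16 in CYC+, 1.74 ± 0.30 in CYC- and 1.58 ± 0.18 CPM in control lines. Their log2 fold changes in selected against control lines were 0.02 ± 0.08 and 0.09 ± 0.13 (adjusted p = 0.921 and 0.777).

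The lower filter of 5 reads in 15 libraries brought in 15 more IR genes, 27 of 10834 tested, and a single further call. Ir85a, which overlaps Pif1A, had 0.250 to 0.366 CPM in CYC+ libraries and 0.370 to 0.604 CPM in control libraries, which do not overlap. Its log2 fold change was -0.67 ± 0.21 (SE, adjusted p = 0.0803), and with it 4 of 27 IR genes were called in CYC+ against control (6.77% of all genes). The values rest on 8 to 23 reads per library, and the call held in 11 of 15 fits with a line left out. It was lost without CYC+ line 1, CYC+ line 3, control line 1 or control line 2.

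Ir7f and Ir7g were high in 1 selected line and nearly absent elsewhere. They were chosen after their values were seen, since neither passes a filter. In CYC+ line 3, Ir7f had 5.68 and 4.11 CPM in the 2 libraries (161 and 157 reads), while the other 28 libraries had 0 to 0.221 CPM and at most 6 reads each. Ir7g had 3.92 and 3.32 CPM in that line (111 and 127 reads) and 0 to 0.308 CPM elsewhere, with at most 10 reads. The line mean was 59.0 times the mean of the other 14 lines for Ir7f and 26.1 times for Ir7g, and 34.1 and 13.6 times the highest other line.

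The 2 genes lie side by side on chromosome X, Ir7f at 7881939 to 7884026 on the minus strand and Ir7g at 7884660 to 7886976 on the plus strand after Ir7c, Ir7d and Ir7e. Their neighbours had few reads or no such difference. Ir7d and Ir7e had 5 and 6 reads in the 2 libraries of CYC+ line 3 and 6 and 10 in the other 28, so that their line mean was also above every other line, on few reads. Ir7c had 8 reads in that line, at 0.703 times the highest other line. CG10932, next to Ir7g, had 76.6 CPM in CYC+ line 3 and 79.6 CPM on average in the other 14 lines. Within 50000 bases on either side, the 14 genes that passed 1 CPM were at 0.891 to 1.21 times the mean of the other lines. Of 11276 genes with at least 100 reads over all libraries, 7 were at least 10 times the highest other line in any 1 line. Among them Ir7f and Ir7g were so in CYC+ line 3. Reads of that line count toward the 100, and Ir7f, with 71 reads in the other 28 libraries, reached 100 only through it. Both genes were chosen for these same values, so the count is a description and no test.

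**Figure D5:**
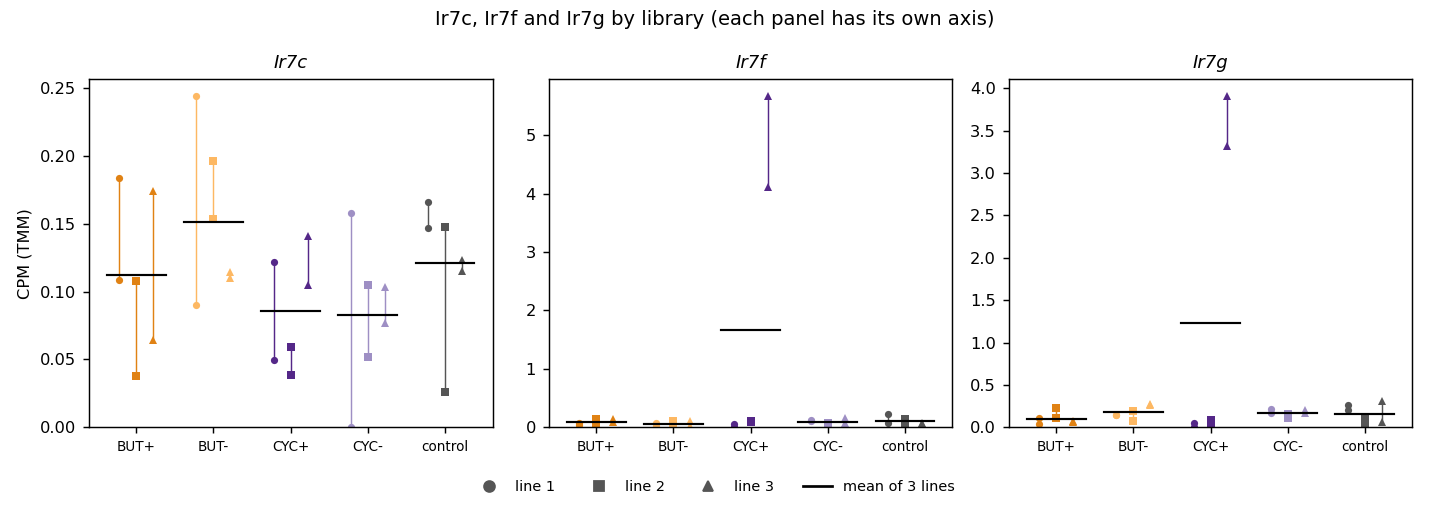
Expression of Ir7c, Ir7f and Ir7g in each library, in TMM-normalized CPM from 0, with a separate axis for each gene. Both libraries of CYC+ line 3 are at 5.68 and 4.11 for Ir7f and 3.92 and 3.32 for Ir7g, while the remaining 28 libraries are at or below 0.221 and 0.308.

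The treatment mean of CYC+ for these genes is set by that line. With no low-count filter, Ir7f and Ir7g were called higher in CYC+ against control, with log2 fold changes of 3.96 ± 0.92 (SE, adjusted p = 0.0225) and 2.95 ± 0.83 (adjusted p = 0.0571). Without CYC+ line 3 the same fit gave -0.67 ± 0.66 (adjusted p = 0.646) and -1.66 ± 0.58 (adjusted p = 0.157). The higher mean of CYC+ thus rests on a single line.

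The glutamate receptor genes, from which IRs derive, were examined as the nearest relatives. Of 14 in the count data 13 were tested, with summed levels of 452 to 666 CPM over all libraries, and they are synaptic rather than sensory. None was called higher in any comparison. In BUT- against control 1 of 13 was lower (4.70% of all genes were called), and in selected against control 1 of 13 (4.38%). CG5621, a kainate-type subunit, was lower in BUT- than in control lines, at 12.5 ± 1.0 and 15.2 ± 1.0 CPM (log2 fold change -0.29 ± 0.09, adjusted p = 0.0930). GluRIID, a subunit of the neuromuscular receptor, was lower in selected against control lines (log2 fold change -0.32 ± 0.10, adjusted p = 0.0939). Of the antennal markers, Obp83b was lower in selected lines, with a log2 fold change of -0.19 ± 0.05 (adjusted p = 0.0220), in CYC+ and in CYC- against control. Obp59a, an odorant-binding protein of humidity-sensing sensilla, was higher in CYC+, at 37.2 ± 4.1 CPM, than in CYC- at 29.8 ± 3.1 and control lines at 30.0 ± 1.0 CPM. Gr64f, a sugar co-receptor, was higher in BUT+ at 2.78 ± 0.29 CPM than in control lines at 1.93 ± 0.24 CPM (log2 fold change 0.53 ± 0.14, adjusted p = 0.0456).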

How the data were processed

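RNA was taken from pooled female heads, 2 pools from each of 15 lines. The authors deposited unnormalized, unfiltered read counts for each gene, made after trimming with Trim Galore and cutadapt and alignment with STAR to the release 6 genome. How reads were counted (tool, strand, multiple hits) is not given in the sources used here, which bears on paralogs and overlapping genes. Library totals ranged from 21194086 to 38621924, and 1 CPM equals 21.2 reads in the smallest library. No 2 libraries were identical.

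The 66 genes were matched by identifier to an annotation of the same release (all 66 matched), which gave exon length, role being assigned from a hand-made list. The members and lists were chosen with earlier results of these data known. Named genes are every IR gene tested, every antennal IR gene, the 5 highest other IR genes, those with reads in all libraries, any called with the lower filter, and called members of the glutamate receptor, antennal and taste lists. The test was that of edgeR 4.0.16 (R 4.3.3). Genes with at least 1 CPM in 15 of 30 libraries were kept, TMM factors applied, and 5 treatment means fitted over all libraries with lines pooled, as the study did. The quasi-likelihood test was used, with Benjamini-Hochberg adjustment over 9240 genes. Standard errors come from the fold change and its F statistic (log2 change over root F). CPM values are TMM-normalized, and means and SDs are over line means. No p was adjusted over the IR genes alone. The study's methods describe both samples of a line as biologically independent.

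The alternatives were DESeq2 1.42.0, relative log expression factors, other low-count filters, an adjusted p under 0.05, lines summed, a voom fit in limma 3.58.1 that treats line as random, sample and line numbers as blocks, first or second samples only, only the libraries compared, and each line left out. Plots were drawn with Python 3.11.15 and matplotlib 3.10.9. Sequences and behavior were not analysed here.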

Additional observations from a re-analysis of the deposited data

Results flagged for a closer look

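Among 27 IR genes in 5 treatments, 135 groups of 6 libraries were screened for a library whose gap to the nearest other library was more than Dixon's 95% limit. There were 4 such groups (2.96%), where chance gives about 1 in 20. Ir68a had 6.04 CPM in sample 2 of BUT- line 1, against 2.34 to 3.72 CPM in the other BUT- libraries. Ir94d had 0.384 CPM in the same library, against 0.0573 to 0.168 CPM in the others. Ir94b had 0.374 CPM in sample 1 of CYC- line 1, against 0.207 to 0.263 CPM in the other CYC- libraries. Ir10a had 0.531 CPM in sample 2 of control line 1, against 0.185 to 0.294 CPM in the other control libraries. The cause was not tested.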

How the results depend on the processing

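None of the calls among the 12 tested IR genes reversed its direction under the alternatives run. Ir7f and Ir7g, called higher in CYC+ against control with no filter (3.96 and 2.95), had log2 fold changes of -0.67 and -1.66 without CYC+ line 3. Calls depended most on how the libraries of a line were used. With the libraries of a line summed, the number of IR genes called was 0 in BUT-, CYC+, CYC- and all selected lines against control and in PI+ against PI-, and it was also 0 in each of these with second samples only. With first samples only it was 1 in CYC+ against control and 0 in the other 4. Of all 9224 genes tested there, 188 were called in CYC+ against control and 0 to 3 in each of the other 4. With second samples only, 370 of 9246 genes were called in CYC+, 524 in CYC- and 281 in selected lines against control. In BUT- against control 9 were called, and 1 in PI+ against PI-. Each of these settings has 15 samples. DESeq2 called 1 in BUT+ against BUT- (1.4% of all genes) and 1 in CYC+ against CYC- (3.58%). With no low-count filter, 5 were called in CYC+ against control, 1 in CYC+ against CYC- and 2 below the 1 CPM filter, which became 0 once CYC+ line 3 was left out. Of all 15895 genes tested without a filter, 654 were called in CYC+ against control and 83 in CYC+ against CYC-. A filter of 1 CPM in all 30 libraries left 1 in PI+ against PI- and 2 in CYC+ against control, with 148 and 571 of all 8763 genes. A fit on only the libraries compared called 1 in BUT+ against control, 1 in BUT+ against BUT-, 2 in CYC+ against control and 0 in CYC- against control. Of all genes it called 599 of 9266, 164 of 9231, 272 of 9270 and 194 of 9301, in that order. Genes detected fell to 14 when at least 10 reads in every library were asked for, in place of 25. The exact permutation test over line means of Ir51b gave p = 0.0484 on the CPM scale and 0.0571 on the log2 scale.

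With a line left out, the number called was 0 to 1 in BUT+ against control and in BUT+ against BUT-, 0 to 2 in BUT-, CYC- and all selected lines against control, 0 to 3 in CYC+ against control and in PI+ against PI-, 0 to 0 in CYC+ against CYC- and for the difference between odorants, and 0 to 2 below the 1 CPM filter.

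All treatments use the same line and sample numbers. The sources do not state that equal numbers share a batch, so the fits above took them as names. Between libraries of different treatments, deviations from treatment means had a mean correlation of 0.096 for equal sample numbers and -0.097 for different ones. By line number it was -0.026 for equal and 0.013 for different numbers. Within a treatment, the mean correlation was 0.055 for libraries of the same line and -0.259 for those of different lines. With the sample number as a replicate block, 1 was called in BUT+ against control, 1 in BUT+ against BUT-, 2 in selected lines against control and 3 in PI+ against PI-. Of all 9240 genes, 388, 125, 525 and 256 were called in these comparisons, in that order. With line number and sample number as replicate block, the numbers of IR genes were 2, 2, 2 and 3, with 1 in CYC+ against CYC-. Those of all genes were 430, 142, 601 and 290, with 224 in CYC+ against CYC-. Ir64a was among the added calls, higher in BUT+ against control (adjusted p = 0.0686 and 0.0789 with these blocks) and in selected lines (0.0711 and 0.0756). The others are Ir8a, Ir75a and Ir75b, all lower.

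Depth limits what can be said of the genes that passed neither filter, among them 19 with fewer than 30 reads in all.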

Other observations

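The second samples of the lines had higher average levels of several IR genes than the first samples. Ir64a was higher in the second sample in 14 of 15 lines, at 2.68 against 2.02 CPM on average, a mean difference of 0.42 ± 0.24 on the log2 scale (SD, n = 15 lines). Over all genes tested, 205 of 9240 (2.22%) were higher in the second sample in at least 14 of 15 lines. Ir76b and Ir25a were each higher in the second sample in 12 of 15 lines, by 0.18 ± 0.21 and 0.19 ± 0.21 on the log2 scale. Ir31a was higher in the second sample in only 3 of 15 lines, with a mean difference of -0.15, and Ir75a and Ir75b showed no mean difference beyond the spread. The second libraries were also deeper, with a median of 35029659 counts against 27846591. Both samples are present in every line, so the treatments are balanced for it.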
